A study of Mus musculus with 78 samples.

Results

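Icam1, Vcam1 and Madcam1 are the 3 genes of leukocyte adhesion ligands described here, taken by name from the 52459 named genes of a deposited mRNA count table. The libraries came from cartilage tissue engineered in culture from mouse induced pluripotent stem cells (iPSCs), which were differentiated into chondrocytes, the cells of cartilage. Some tissues were treated for 4, 12, 24 or 72 h with IL-1beta, an inflammatory cytokine of the interleukin-1 family, at 1 ng/mL, others as long with TNF-alpha, tumor necrosis factor, at 20 ng/mL, and controls without cytokine were sampled after 0, 4, 12, 24 and 72 h. Each of the 13 groups had 3 mRNA libraries, except that control 0 h had 2 here, since a column whose values were out of line with its genes was left out. The labels name no genotype, donor line or clone, and whether the replicate libraries are separate cultures is not said, so a p-value may reflect technical spread between libraries alone.

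The 3 proteins are membrane proteins of the immunoglobulin superfamily that leukocytes bind through integrins. ICAM-1 is bound by LFA-1 (Itgal with Itgb2) and Mac-1 (Itgam with Itgb2), VCAM-1 mainly by VLA-4 (Itga4 with Itgb1), and MAdCAM-1 mainly by the gut-homing integrin of Itga4 and Itgb7. They are known best from the endothelium, where IL-1 and TNF raise ICAM-1 and VCAM-1 through NF-kappaB. MAdCAM-1 marks the venules of the gut and of mucosal lymphoid tissue, and stromal cells of lymphoid organs carry it as well. ICAM-1 and VCAM-1 have also been described on chondrocytes and synovial fibroblasts.

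In mouse build GRCm38.p6 (mm10) and the RefSeq annotation, Icam1 lies on chromosome 9 from 21015940 to 21028814, Vcam1 on chromosome 3 from 116110020 to 116129688, and Madcam1 on chromosome 10 from 79664559 to 79668542. No other annotated gene overlapped any of the 3, and Icam4 begins 617 bases after the end of Icam1. RefSeq promoter windows were matched for 2 of the 3 genes, Icam1 and Madcam1, and their 250 bases upstream of the annotated start are shown to set beside the responses of these genes. The first is chr9:21015690-21015939 and the second chr10:79664309-79664558, both on the plus strand, from RefSeq. Capitals mark every match to GGANNNNCC, a loose spelling of the NF-kappaB motif.
Icam1: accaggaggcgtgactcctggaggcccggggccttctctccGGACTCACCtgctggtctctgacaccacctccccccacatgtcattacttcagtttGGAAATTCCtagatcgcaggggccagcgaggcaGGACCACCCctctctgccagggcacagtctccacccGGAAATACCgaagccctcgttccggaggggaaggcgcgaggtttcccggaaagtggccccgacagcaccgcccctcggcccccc
Madcam1: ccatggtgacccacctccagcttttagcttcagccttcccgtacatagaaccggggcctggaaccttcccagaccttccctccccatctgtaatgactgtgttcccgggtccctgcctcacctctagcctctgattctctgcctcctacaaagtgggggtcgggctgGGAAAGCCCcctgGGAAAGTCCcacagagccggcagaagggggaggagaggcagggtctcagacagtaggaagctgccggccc
The Icam1 window held matches at 4 places, which begin at positions -209, -153, -120 and -84 from the start, and the one at -153 reads as a match on both strands. The Madcam1 window held matches at 2 places, at -83 and -70, of which the one at -70 matches on both strands. On either strand 42.3% of the 32851 mouse promoter windows of this length held at least 1 such match. Icam1 also held TTCNNNGAA, the spacing of STAT sites, at -42 (7.02% of windows) and GGGCGG, the Sp1 box, on the minus strand at -17 (32.7% of windows). GAAANNGAA, TGANTCA and TATAAA, held by 7.13%, 6.75% and 12.4% of windows, had no match in either. None of these matches overlapped a match to another motif. A match to such letters is a description of the sequence and no evidence of binding.

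Total counts ran from 11163263 to 68655350 per library, and values are given as CPM (counts scaled to a common library size) on library sizes scaled by TMM. All 3 genes passed the low-count filter, as did 18857 genes in all. Genes were called at a Benjamini-Hochberg adjusted p under 0.05 in edgeR's quasi-likelihood test over these 18857 genes, and errors beside fold changes are standard errors (SE) on the log2 scale. Each cytokine was set against the control of the same time. The 8 libraries of IL-1beta 4 h, control 4 h and control 0 h stood apart from the other 30 in 12 genes by at least 1 log2 unit between the nearest libraries. These were predicted genes such as Gm10800 together with Rnu3a and Rmrp, and no member was among them. The TNF-alpha comparison with control at 4 h, the comparison of the cytokines at 4 h, the changes of an effect between 4 h and later times and the test of the controls over time cross this division, and its part in them was not tested. With IL-1beta the effect at each time was taken within 1 side of the division, while the TNF-alpha effect at 4 h was taken across it. Col2a1, the main collagen of cartilage, was among the most abundant transcripts, with 9374 to 101017 CPM as group means.

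Icam1, the ligand of LFA-1, was raised by both cytokines at every time and stood highest at 4 h. At 4 h it stood at 651, 666 and 517 CPM in the IL-1beta libraries, against 49.6, 48.9 and 49.1 CPM in the 4 h controls. TNF-alpha gave 783, 655 and 819.6 CPM at 4 h. These were log2 fold changes of 3.64 ± 0.10 for IL-1beta (adjusted p = 3.18e-24) and 3.93 ± 0.11 for TNF-alpha (adjusted p = 8.82e-25), and no library of either cytokine came near the controls. Of all genes tested 15.5% rose with IL-1beta and 10.9% with TNF-alpha at 4 h.

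After 12 h the Icam1 level was 379.7, 356 and 392 CPM with IL-1beta, against 54.4, 52.3 and 61.3 CPM in the controls. It was 447, 504 and 407 CPM with TNF-alpha. Every treated library stayed several times above every control, with log2 fold changes of 2.75 ± 0.10 (adjusted p = 3.07e-21) for IL-1beta and 3.02 ± 0.10 (adjusted p = 2.01e-22) for TNF-alpha. At 24 h the values were 235, 218 and 217 CPM with IL-1beta, against 54.2, 51.2 and 54.5 CPM in controls, and 278, 199 and 237 CPM with TNF-alpha. The log2 fold changes were then 2.07 ± 0.10 for IL-1beta and 2.16 ± 0.10 for TNF-alpha (adjusted p = 5.00e-18 and 1.95e-18). The share of all genes that rose was 14.5% and 17% with IL-1beta at 12 and 24 h, and 14.6% and 13.2% with TNF-alpha.

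By 72 h the cytokines had parted. Icam1 stood at 96.2, 85.2 and 87.4 CPM with IL-1beta, against 66.8, 65.3 and 68.5 CPM in controls, a log2 fold change of 0.42 ± 0.10 (adjusted p = 0.00068). With TNF-alpha it stood at 243, 230.4 and 255 CPM, a log2 fold change of 1.86 ± 0.10 (adjusted p = 4.77e-17). The IL-1beta libraries were only just above the controls, with no overlap, while the TNF-alpha libraries overlapped those of 24 h. At this time 19.3% of all genes rose with IL-1beta and 17.8% with TNF-alpha.

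**Figure D1:**
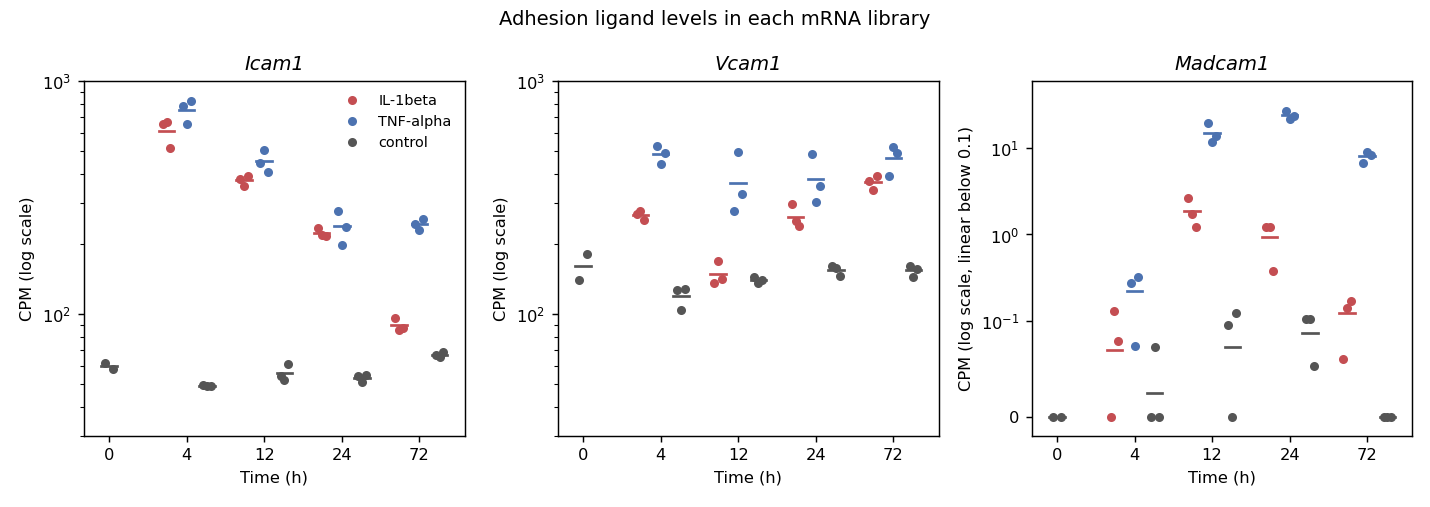
Level of Icam1, Vcam1 and Madcam1 in each of the 38 mRNA libraries (points) and the group mean (short lines) in CPM on a log axis, linear below 0.1 CPM for Madcam1, by time, for IL-1beta, TNF-alpha and control. Icam1 peaks at 4 h, Vcam1 dips at 12 h with IL-1beta, and Madcam1 is high from 12 h with TNF-alpha.

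Vcam1, the ligand of VLA-4, was well expressed without cytokine and rose in every comparison except IL-1beta at 12 h. At 4 h the IL-1beta libraries held 269, 278 and 252 CPM, against 126, 104 and 128 CPM in controls, a log2 fold change of 1.16 ± 0.15 (adjusted p = 1.65e-07). TNF-alpha libraries held 525, 441 and 489 CPM, a log2 fold change of 2.02 ± 0.15 (adjusted p = 1.16e-12). The 3 groups did not overlap.

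At 12 h the IL-1beta libraries held 135, 169 and 141 CPM of Vcam1, against 144, 136 and 140.0 CPM in controls. These groups overlapped, and the log2 fold change of 0.08 ± 0.15 did not pass the test (adjusted p = 0.736). TNF-alpha libraries were at 277, 496 and 327 CPM, with 1 library well above the other two, and the log2 fold change of 1.39 ± 0.15 was called (adjusted p = 5.49e-09).

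With IL-1beta, Vcam1 was higher again at the later times. At 24 h it stood at 295, 251 and 239 CPM with IL-1beta, against 161, 157 and 146 CPM in controls, and at 488, 303 and 354 CPM with TNF-alpha. By 72 h IL-1beta gave 371, 340.4 and 391 CPM, against 160.4, 144 and 157 CPM in controls, and TNF-alpha gave 390.1, 521 and 489 CPM. At both times no library of either cytokine fell into the range of the controls. The log2 fold changes with IL-1beta were 0.76 ± 0.15 at 24 h and 1.26 ± 0.15 at 72 h (adjusted p = 0.000116 and 1.37e-08). With TNF-alpha they were 1.30 ± 0.15 and 1.60 ± 0.15 (adjusted p = 1.94e-08 and 1.23e-10).

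Madcam1, the ligand of the gut-homing integrin, was almost silent in the controls and was raised strongly by TNF-alpha from 12 h on. No Madcam1 read was counted in the controls of 0 h or 72 h, while those of 4 h held 0, 2 and 0 counts, those of 12 h 2, 0 and 2 and those of 24 h 2, 2 and 1. At 12 h TNF-alpha libraries held 364, 175 and 246 counts, or 19.7, 11.8 and 13.8 CPM. After 24 h they held 629, 647 and 632 counts, or 27.2, 21.6 and 23.4 CPM, which was the highest group. At 72 h they held 158, 338 and 200 counts, or 6.75, 9.14 and 8.33 CPM. Against the controls of the same time the log2 fold change was 7.57 ± 0.44 at 12 h (adjusted p = 4.76e-15) and 8.01 ± 0.40 at 24 h (adjusted p = 1.12e-16). At 24 h this was the second largest fitted fold change of the 18857 genes. Summed over libraries the level ratio was 207 (95% interval 80.4 to 760.3) at 12 h and 272 (95% interval 116 to 838) at 24 h, with exact intervals that cover counting error only. With no count in the 72 h controls, the exact 95% interval of the TNF-alpha ratio there begins at 129, and a floor of 3 counts over the control group would give 159. The edgeR test called this rise (adjusted p = 6.51e-14).

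At 4 h Madcam1 was still low with either cytokine. TNF-alpha libraries held 4, 1 and 4 counts, against 0, 2 and 0 in controls, and the log2 fold change of 3.23 ± 1.15 was called (adjusted p = 0.0426), with a level ratio of 12 (95% interval 2.48 to 114). This call was lost without TNF-alpha library a (log2 3.03, adjusted p = 0.141) or c (2.92, adjusted p = 0.158), and without control a (2.53, adjusted p = 0.169) or c (2.81, adjusted p = 0.098). Without control b, which held both control counts, the log2 value was 5.32 (adjusted p = 0.0186). Against the 12 h controls, which lie on the same side of the library division as TNF-alpha 4 h, it was 1.51 (adjusted p = 0.324). IL-1beta libraries held 0, 8 and 1 counts at 4 h, most of them in the most deeply sequenced library of all, and the log2 fold change of 2.08 ± 1.15 did not pass the test (adjusted p = 0.172). Leaving out 1 library moved it between 0.68, without IL-1beta b, and 4.19, without control b, and no such fit called it.

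IL-1beta raised Madcam1 at 12 and 24 h, to a much lower level than TNF-alpha. At 12 h its libraries held 29, 28 and 17 counts, or 2.61, 1.75 and 1.23 CPM, a log2 fold change of 4.52 ± 0.65 (adjusted p = 1.43e-06). After 24 h they held 33, 28 and 12 counts, or 1.22, 1.22 and 0.379 CPM, a log2 fold change of 3.29 ± 0.66 (adjusted p = 0.000168). Neither group overlapped its controls. At 72 h the counts were 1, 3 and 4, against 0, 0 and 0 in controls, which missed the threshold (adjusted p = 0.0526), and the exact 95% interval of the level ratio begins at 1.6.

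**Figure D2:**
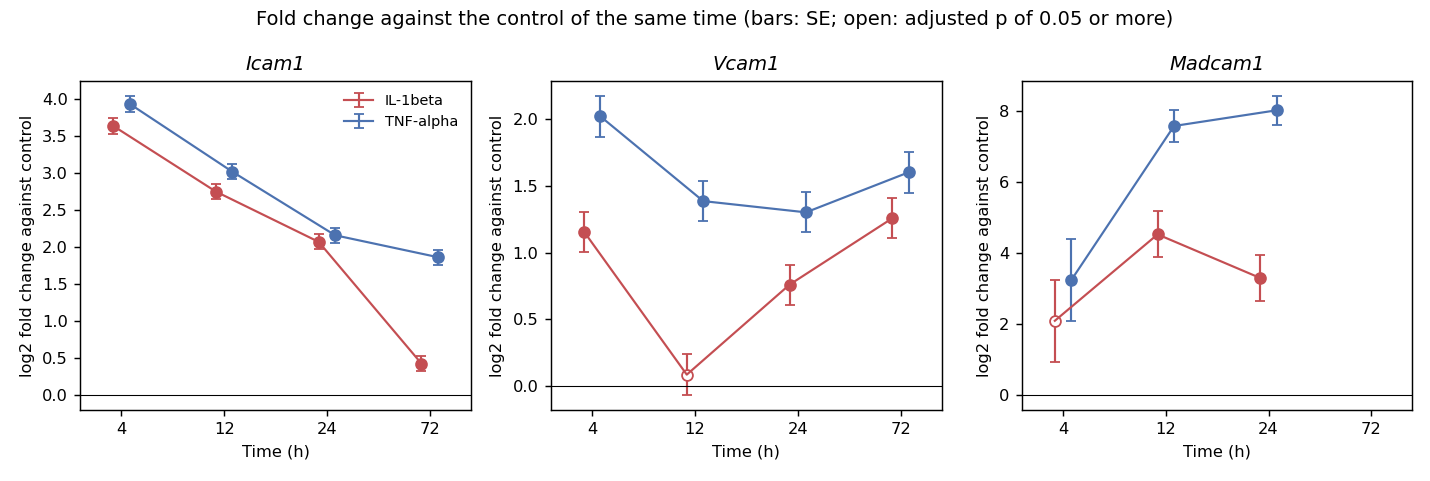
Log2 fold change of each ligand gene against the control of the same time (y axis) by time (x axis) for IL-1beta and TNF-alpha, with SE bars from the edgeR fit; filled points passed an adjusted p of 0.05. Madcam1 at 72 h is not drawn because its controls held no counts. Icam1 has its largest value at 4 h in both courses, with 0.42 for IL-1beta and 1.86 for TNF-alpha at 72 h.

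The cytokines were compared directly at each time. Vcam1 was lower with IL-1beta than with TNF-alpha at 4 h (log2 -0.86 ± 0.15, adjusted p = 7.49e-05), at 12 h (-1.30 ± 0.15, adjusted p = 1.24e-07) and at 24 h (-0.54 ± 0.15, adjusted p = 0.00617). At 72 h the difference of -0.34 ± 0.15 missed the threshold (adjusted p = 0.0611) and libraries overlapped. The call at 24 h was lost without TNF-alpha library a, at -0.33 (adjusted p = 0.135). Icam1 was lower with IL-1beta at 4 h by a small margin (log2 -0.30 ± 0.09, adjusted p = 0.0304), and libraries of the cytokines overlapped. That call was lost without IL-1beta library c (-0.19, adjusted p = 0.248) or TNF-alpha library a (-0.26, adjusted p = 0.14) or c (-0.22, adjusted p = 0.186). The Icam1 differences of -0.27 ± 0.09 at 12 h and -0.09 ± 0.09 at 24 h did not pass (adjusted p = 0.0629 and 0.599). At 72 h Icam1 was lower with IL-1beta by a log2 difference of -1.44 ± 0.10 (adjusted p = 1.40e-14).

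Madcam1 showed the widest gap between the cytokines. It was lower with IL-1beta, with log2 differences of -3.05 ± 0.27 at 12 h, -4.72 ± 0.26 at 24 h and -5.91 ± 0.41 at 72 h (adjusted p = 1.17e-09, 2.69e-15 and 1.45e-13). At 4 h, with 9 counts in each group, no difference was detectable (-1.14 ± 0.90, adjusted p = 0.48). Of all genes 12.4% differed between the cytokines at 4 h, 10.6% at 12 h, 20.1% at 24 h and 39.8% at 72 h, so a call at 72 h was common.

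Whether an effect changed over time was tested for each cytokine as the interaction of treatment with time. The Icam1 effect changed for IL-1beta (adjusted p = 6.32e-18) and for TNF-alpha (adjusted p = 2.27e-13). The Vcam1 effect of IL-1beta changed as well (adjusted p = 9.54e-05). That of TNF-alpha passed narrowly (adjusted p = 0.0429), lost its call in 16 of the 24 fits that each left out 1 library, and over 12, 24 and 72 h alone gave an adjusted p of 0.62. Among all genes the IL-1beta effect changed for 38.7% and the TNF-alpha effect for 19.2%. For Madcam1 no change of the fold was called (adjusted p = 0.631 for IL-1beta and 0.242 for TNF-alpha), with 11 counts in all control libraries together.

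Between neighbouring times the IL-1beta effect on Icam1 fell by log2 0.89 ± 0.14 at 12 h against 4 h, by 0.68 ± 0.14 at 24 h against 12 h and by 1.65 ± 0.14 at 72 h against 24 h (adjusted p = 1.65e-05, 0.000932 and 8.58e-11). Over all genes 12.6%, 9.17% and 13.9% changed in these steps. The TNF-alpha effect on Icam1 fell by 0.92 ± 0.14 and then by 0.86 ± 0.14 (adjusted p = 1.54e-05 and 0.00122), where 7.42% and 0.366% of all genes changed. Its last step of -0.30 ± 0.14 did not pass (adjusted p = 0.281), where 3.77% of genes did. From the first time to the last, the Icam1 effect differed by -3.21 ± 0.14 for IL-1beta and -2.07 ± 0.14 for TNF-alpha (adjusted p = 1.31e-18 and 2.08e-13), steps in which 30.6% and 16.9% of genes changed.

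The IL-1beta effect on Vcam1 fell by log2 1.07 ± 0.21 at 12 h against 4 h (adjusted p = 0.000536) and rose by 0.67 ± 0.21 at 24 h against 12 h (adjusted p = 0.0384). The second of these calls was lost in 10 of 12 fits without 1 library, with adjusted p from 0.0522 to 0.113, and it held without IL-1beta 12 h b or IL-1beta 24 h c. The Vcam1 effect of IL-1beta differed by 0.50 ± 0.21 at 72 h against 24 h (adjusted p = 0.121). At 72 h against 4 h it differed by 0.10 ± 0.21 (adjusted p = 0.77). No difference of the TNF-alpha effect on Vcam1 was called. It was -0.64 ± 0.21 at 12 h against 4 h and -0.08 ± 0.21 at 24 h against 12 h (adjusted p = 0.0591 and 0.92). At 72 h it was 0.30 ± 0.21 against 24 h and -0.42 ± 0.21 against 4 h (adjusted p = 0.538 and 0.186). For Madcam1 none of the 8 differences between effects was called.

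The same courses were read as levels within the treated groups, with no control in the contrast. IL-1beta 4 h lies on the other side of the library division from IL-1beta 12 h, and the TNF-alpha groups all lie on 1 side. With TNF-alpha, Madcam1 was higher by log2 6.06 ± 0.40 at 12 h against 4 h (adjusted p = 3.48e-13), by 0.67 ± 0.20 at 24 h against 12 h (adjusted p = 0.021), and fell by 1.57 ± 0.20 at 72 h against 24 h (adjusted p = 2.45e-06). Over all genes 17.1%, 15% and 10.4% changed in these steps. The middle step lost its call without TNF-alpha 12 h b (0.51, adjusted p = 0.157) or c (0.60, adjusted p = 0.0546), and without TNF-alpha 24 h a (0.57, adjusted p = 0.0915) or c (0.69, adjusted p = 0.0506). Icam1 in the same groups had log2 differences of -0.73 ± 0.09, -0.93 ± 0.09 and 0.03 ± 0.09, of which the last did not pass (adjusted p = 0.893). No step of Vcam1 under TNF-alpha passed the test (adjusted p = 0.0554, 0.844 and 0.226). Thus in the TNF-alpha groups Icam1 fell between 4 and 24 h while Madcam1 rose between 4 and 12 h.

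With IL-1beta all 3 genes changed in every step. Icam1 changed by log2 -0.70 ± 0.09, -0.75 ± 0.09 and -1.32 ± 0.10 (adjusted p = 3.36e-07, 1.28e-07 and 6.79e-13). Vcam1 changed by -0.84 ± 0.15, 0.82 ± 0.15 and 0.49 ± 0.15 (adjusted p = 3.96e-05, 6.08e-05 and 0.0109). Madcam1 changed by 4.15 ± 0.54, -1.0 ± 0.36 and -2.75 ± 0.59 (adjusted p = 3.49e-07, 0.0302 and 0.000469). Icam1 and Vcam1 thus moved apart after 12 h, Icam1 down and Vcam1 up. The first Madcam1 step was 5.53 without IL-1beta 4 h b. Its middle step lost its call without IL-1beta 12 h a (-0.73, adjusted p = 0.182), 12 h b (-1.04, adjusted p = 0.0633) or 24 h c (-0.58, adjusted p = 0.204), and the last Vcam1 step without 24 h c (0.43, adjusted p = 0.0619). Since 30.9%, 36.2% and 29.1% of all genes changed in these steps, a call alone says little about these genes.

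In the controls, whose 0 h and 4 h libraries lie on the other side of the library division from the rest, Icam1 changed over 0 to 72 h (adjusted p = 0.00361), as did 55.6% of all genes, between 49.2 CPM at 4 h and 66.9 CPM at 72 h as group means. At 0 h the 2 controls held 61.6 and 58 CPM of Icam1 and 141 and 181 CPM of Vcam1. No change in the controls was called for Vcam1 (adjusted p = 0.11) or Madcam1 (adjusted p = 0.231).

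Ordered by mean CPM, Icam1 was highest in TNF-alpha 4 h (752 ± 86.6, SD, n = 3), IL-1beta 4 h (611 ± 82.5), TNF-alpha 12 h (453 ± 48.8) and IL-1beta 12 h (376 ± 18.5). The groups next to each other in this order did not overlap, except TNF-alpha 4 h with IL-1beta 4 h, TNF-alpha 72 h with TNF-alpha 24 h, TNF-alpha 24 h with IL-1beta 24 h, and the controls of 0, 12 and 24 h among themselves. For Vcam1 the order began with TNF-alpha 4 h (485 ± 42.5), TNF-alpha 72 h (467 ± 68.3), TNF-alpha 24 h (381 ± 95.6), IL-1beta 72 h (368 ± 25.4) and TNF-alpha 12 h (367 ± 115). Most neighbours in the Vcam1 order overlapped, and the clear breaks lay below IL-1beta 24 h (262 ± 29.6) and below control 12 h (140.2 ± 3.99). Madcam1 ran from TNF-alpha 24 h (24.1 ± 2.88) over TNF-alpha 12 h (15.1 ± 4.08), TNF-alpha 72 h (8.07 ± 1.22) and IL-1beta 12 h (1.86 ± 0.697) to IL-1beta 24 h (0.939 ± 0.485), with no overlap down to there. The 8 groups under it held at most 0.223 CPM as a mean and overlapped with their neighbours.

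To set the genes beside each other, CPM was divided by the gene lengths deposited with the counts (4360 bases for Icam1, 8870 for Vcam1 and 1436 for Madcam1). Per kilobase, Icam1 reached 173 CPM at 4 h with TNF-alpha and Vcam1 54.7. In TNF-alpha 24 h libraries Icam1 stood at 54.5, Vcam1 at 43 and Madcam1 at 16.8 CPM per kilobase. The ratio of Vcam1 to Icam1 per length was 0.203, 0.205 and 0.24 in the IL-1beta libraries of 4 h and 0.175, 0.234 and 0.176 in those of 12 h. It was 0.618, 0.566 and 0.54 after 24 h of IL-1beta, and 1.9, 1.96 and 2.2 after 72 h. TNF-alpha libraries had ratios of 0.33, 0.331 and 0.293 at 4 h, and of 0.305, 0.483 and 0.395 at 12 h. They had 0.863, 0.749 and 0.733 after 24 h of TNF-alpha, and 0.79, 1.11 and 0.942 after 72 h. In the 14 controls it lay between 1.05 and 1.53. Vcam1 was thus the more abundant transcript per length in every control, Icam1 in every treated library up to 24 h, and Vcam1 again in every IL-1beta library at 72 h, where the ratio lay above that of every control. At 72 h with TNF-alpha 1 library of 3 was above 1. The ratio of Madcam1 to Icam1 per length was 0.134, 0.0711 and 0.103 in the TNF-alpha libraries of 12 h, 0.298, 0.33 and 0.299 in those of 24 h, and 0.0844, 0.12 and 0.0991 in those of 72 h. These ratios are a description and were not tested.

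**Figure D3:**
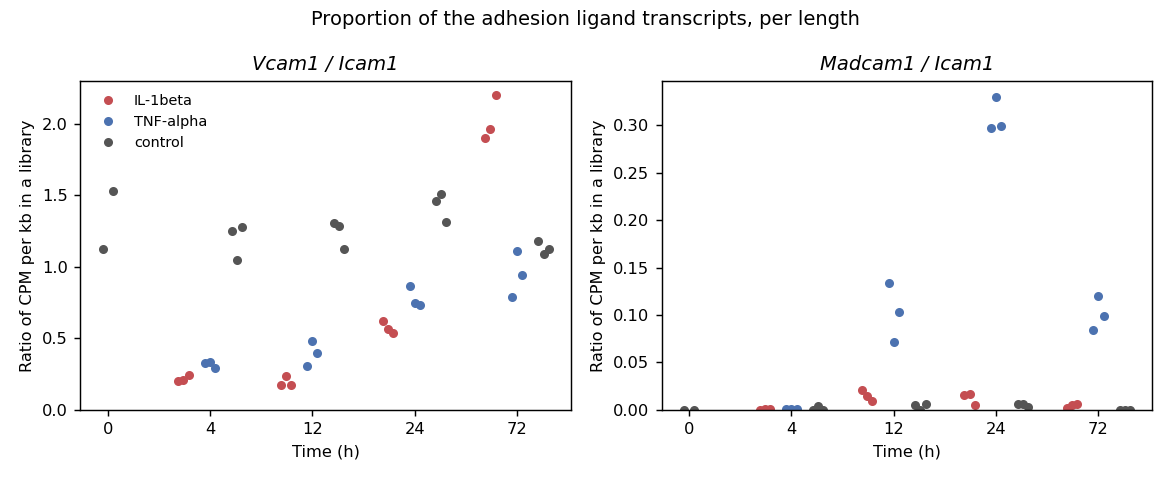
Ratio of Vcam1 to Icam1 (left) and of Madcam1 to Icam1 (right) in CPM per kilobase, 1 point per library, by time, for IL-1beta, TNF-alpha and control; both y axes are linear and start at 0. Vcam1 outweighs Icam1 in the controls and in IL-1beta libraries at 72 h, and Madcam1 reaches about 0.3 of Icam1 with TNF-alpha at 24 h.

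A list of 22 other adhesion ligands and endothelial adhesion molecules was read in the same fit. Of these 18 passed the filter, and with IL-1beta 7, 6, 6 and 4 of them rose at 4, 12, 24 and 72 h and 2, 1, 0 and 3 fell. With TNF-alpha 6, 6, 5 and 7 rose and 1, 1, 1 and 1 fell. Of all genes 15.5%, 14.5%, 17% and 19.3% rose with IL-1beta at these times and 17.2%, 15%, 15.6% and 19.7% fell, while with TNF-alpha 10.9%, 14.6%, 13.2% and 17.8% rose and 10.6%, 13.8%, 11.9% and 18.3% fell. The list's count at 72 h with IL-1beta was thus near the share of all genes. The list's median log2 fold change lay between 0.04 and 0.28 over the 8 comparisons, beside -0.03 to 0.00 for all genes. Sele, or E-selectin, which slows rolling leukocytes, had a low level and a steep change: 9.34 CPM with IL-1beta and 19.1 CPM with TNF-alpha at 4 h, against 0.371 CPM in controls. Its log2 fold changes over the 4 times were 4.65, 2.85, 3.17 and 0.45 with IL-1beta and 5.69, 4.06, 4.03 and 2.15 with TNF-alpha, all called but the value for IL-1beta at 72 h (adjusted p = 0.608). Without control 12 h b the Sele values of that time were 3.75 with IL-1beta and 4.97 with TNF-alpha, and without control 24 h b those of 24 h were 4.10 and 4.96. Cx3cl1, a chemokine that is tethered to the membrane and holds leukocytes by Cx3cr1, rose in all 8 comparisons, by 1.94, 1.26, 1.70 and 1.83 with IL-1beta and 2.23, 1.82, 1.56 and 1.61 with TNF-alpha, and at 12 h with TNF-alpha by 1.19 without library b. Cxcl16, the other tethered chemokine, rose in 7 of 8, up to 1.99 with TNF-alpha at 24 h. Its call with IL-1beta at 12 h (0.48) was lost in 4 of 6 fits without 1 library, those without IL-1beta a or b or control b or c.

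Alcam rose in 6 of 8 comparisons, by 0.89 at most, and its call with TNF-alpha at 4 h was lost in 2 of 6 fits without 1 library. Jam2 fell in 3 of 8, by 1.0 with IL-1beta at 72 h. Its call with IL-1beta at 4 h (-0.46) was lost without IL-1beta a or control a or b, and ran from -0.61 to -0.24 over the fits without 1 library. Selp, or P-selectin, reached 1.2 CPM at most as a group mean, and its 2 calls were lost when single libraries were left out. Icam5 had 1 such call. Icam2 held 53 counts over the 38 libraries and Icam4 none, and neither was tested. Icam4, the gene next to Icam1, was thus at 0 in every library in which Icam1 rose.

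Of the leukocyte side of these contacts, the chains Itgal, Itgb2 and Itgb7 had low counts, while Itgb1, the widely expressed beta chain of VLA-4, averaged 847 CPM. Itgb1 had log2 fold changes of 0.20, 0.10, 0.03 and -0.10 with IL-1beta and 0.22, 0.25, 0.11 and 0.13 with TNF-alpha. Of 15 leukocyte receptors of the ligands 8 were tested, of which 3, 2, 3 and 3 rose with IL-1beta and 3, 3, 3 and 4 with TNF-alpha at the 4 times, while 1, 0, 0 and 0 fell with IL-1beta and 0, 0, 0 and 1 with TNF-alpha. In the 8 comparisons 10.9% to 19.3% of all genes rose and 10.6% to 19.7% fell. The list's median lay between -0.06 and 0.49. Itgal, the alpha chain of LFA-1, had 77 counts in all libraries together and was not tested. Itgb2, the shared beta chain of LFA-1 and Mac-1, reached 3.62 CPM with IL-1beta at 24 h, against 1.44 CPM in controls (log2 1.32 ± 0.26, adjusted p = 0.000112). Itgb2 rose in 6 of 8 comparisons, and 3 of these calls held in every fit without 1 library. Itga4 rose with IL-1beta at 72 h, by log2 0.73, a call that held in every such fit. Itga4 was also called lower in 2 of 8 comparisons, and neither of those calls held in every such fit. Itgb7, the partner of Itga4 for MAdCAM-1, reached 2.25 CPM at most as a group mean, and 1 of its 4 calls of a rise held. Itga9, whose integrin also binds VCAM-1, rose in all 8 comparisons, by 1.28, 1.18, 1.24 and 0.78 with IL-1beta and 0.98, 1.42, 1.17 and 1.34 with TNF-alpha.

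Markers of cell types that carry these ligands or their receptors were read beside them. The 11 leukocyte markers summed to 4.5 to 10.5 CPM in cytokine libraries and 5.47 to 13.8 CPM in controls. At 12 h this sum was 4.5 to 5.22 CPM for IL-1beta, 7.06 to 7.89 for TNF-alpha and 8.2 to 8.9 for controls. IL-1beta libraries of 24 h held 5.23 to 6.02 CPM, against 8.42 to 8.58 CPM in controls. By 72 h IL-1beta libraries held 6.2 to 7.03 CPM, TNF-alpha libraries 6.22 to 8.63 CPM and controls 9.88 to 13.8 CPM. All of these cytokine ranges lay below the controls of their time. Both cytokines overlapped the controls at 4 h, and TNF-alpha did so at 24 h as well. Ptprc, the pan-leukocyte CD45, was at 0.281 CPM on average and under the filter. Of 6 leukocyte markers tested at most 1 rose and 1 fell in any comparison, with medians from -0.38 to 0.46. Among 11 endothelial markers Cdh5, the junction cadherin of endothelium, had 72 counts in all libraries, and the list without Erg summed to 2.82 to 7.12 CPM in cytokine libraries and 2.91 to 4.76 CPM in controls. Erg, which chondrocytes also express, made up most of the full sum of 66.6 to 165 CPM in cytokine libraries and 145 to 228 CPM in controls. Of 4 endothelial markers tested at most 1 rose and 1 fell in any comparison, with medians from -0.54 to 0.12. Of all genes 10.9% to 19.3% rose and 10.6% to 19.7% fell in the 8 comparisons, so these counts say little about either marker list. At 24 h with TNF-alpha, where Madcam1 was highest, the leukocyte sum was 8.14 to 10.5 CPM, against 8.42 to 8.58 CPM in controls, and the endothelial sum without Erg 3.29 to 3.81 CPM, against 3.14 to 4.21 CPM. With IL-1beta the endothelial sum without Erg was 4.18 to 4.41 CPM at 12 h, against 3.11 to 3.84 CPM in controls. At 24 h it was 4.42 to 5.67 CPM with IL-1beta, against 3.14 to 4.21 CPM. Neither range overlapped the controls. At 4 h with either cytokine and at 12 h with TNF-alpha it overlapped them. At 72 h it was 5.59 to 7.12 CPM with IL-1beta and 4.44 to 5.62 CPM with TNF-alpha. The 72 h controls held 2.91 to 4.09 CPM, which neither overlapped. Egfl7 rose there, by log2 1.5 with IL-1beta and 0.95 with TNF-alpha. Erg was set aside after its values were seen. The part of these cells in the member values was not tested.

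Chondrocyte markers fell mostly late. Of 9 markers 0, 4, 8 and 8 fell with IL-1beta at 4, 12, 24 and 72 h. With TNF-alpha 1, 3, 5 and 8 fell. Of all genes 17.2%, 15%, 15.6% and 19.7% fell with IL-1beta, and 10.6%, 13.8%, 11.9% and 18.3% with TNF-alpha. In the 8 comparisons 10.9% to 19.3% of all genes rose. Of the markers 0, 1, 1 and 1 rose with IL-1beta, and 0, 1, 2 and 1 with TNF-alpha. Their medians were 0.10, -0.30, -1.23 and -2.17 with IL-1beta and 0.11, -0.13, -0.29 and -1.22 with TNF-alpha over the 4 times. Col2a1 had log2 fold changes of 0.22, -0.71, -1.36 and -2.54 with IL-1beta and -0.07, -0.57, -0.58 and -1.35 with TNF-alpha, and its calls with TNF-alpha at 12 and 24 h were lost in 2 and 1 of 6 fits without 1 library. In bulk tissue a change in the share of a cell type and a change of RNA per cell cannot be told apart, which holds for the members as well.

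The list of transcription factors and NF-kappaB components known for these promoters held 18 genes, all tested. With IL-1beta 10, 11, 13 and 13 rose over the 4 times and with TNF-alpha 10, 10, 11 and 12, while 1, 2, 0 and 0 fell with IL-1beta and 1, 2, 0 and 0 with TNF-alpha. In the IL-1beta comparisons 14.5% to 19.3% of all genes rose, and in those of TNF-alpha 10.9% to 17.8%. The list's medians were 0.69, 0.42, 0.44 and 0.64 with IL-1beta and 0.61, 0.33, 0.34 and 0.42 with TNF-alpha. Relb and Nfkb2, the subunits of the non-canonical NF-kappaB dimer, rose in all 8 comparisons. Relb rose by 2.25, 1.52, 1.79 and 1.74 with IL-1beta and by 1.89, 1.34, 1.39 and 1.39 with TNF-alpha, and Nfkb2 by 2.13, 1.29, 1.62 and 1.45 with IL-1beta and by 2.10, 1.30, 1.51 and 1.36 with TNF-alpha. Rela, the canonical subunit, rose by 0.26 to 0.79, and its smallest call, with IL-1beta at 72 h, was lost in 3 of 6 fits without 1 library. Nfkbia, an inhibitor that NF-kappaB induces, rose by 1.97 to 2.67, and Nfkbie by 1.63 to 3.87.

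Irf1, an interferon regulatory factor that TNF uses at the Vcam1 promoter in endothelium, rose in all 8 comparisons. Its log2 fold changes were 0.98, 1.03, 1.41 and 0.90 with IL-1beta and 2.65, 2.45, 2.42 and 2.08 with TNF-alpha. Directly compared, Irf1 was lower with IL-1beta at every time, with log2 differences of -1.67, -1.42, -1.02 and -1.18 (adjusted p = 2.22e-09, 1.28e-07, 2.38e-06 and 9.81e-08). Nkx2-3, a homeobox factor that Madcam1 needs in mouse spleen and gut, was at 0.863 to 1.72 CPM as group means and passed the test in no comparison.

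**Figure D4:**
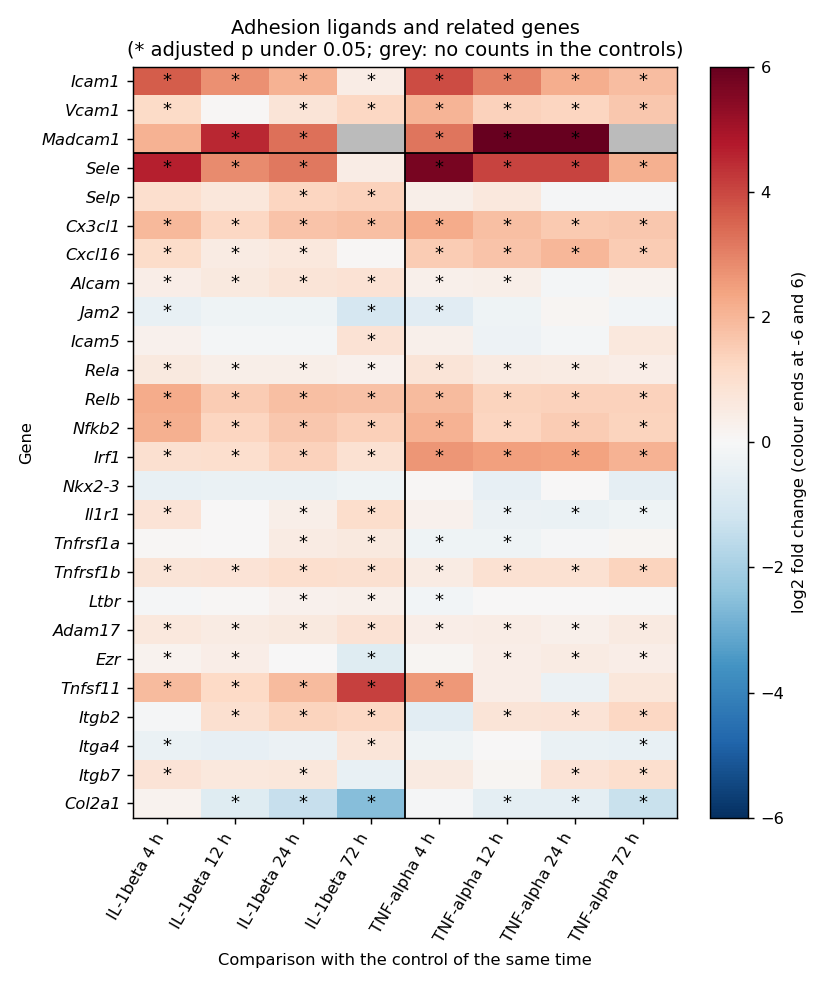
Log2 fold change (colour, which ends at -6 and 6) of the 3 ligand genes (above the line) and of genes named from the lists, for IL-1beta (left) and TNF-alpha (right) against the control of the same time; a star marks an adjusted p under 0.05 and grey marks comparisons whose controls held no counts. Irf1 is redder with TNF-alpha, and Tnfsf11 with IL-1beta at 72 h.

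The receptors of the cytokines were present throughout. Il1r1, the signalling receptor of IL-1, had log2 fold changes of 0.81, 0.01, 0.33 and 1.06 with IL-1beta and 0.24, -0.36, -0.38 and -0.25 with TNF-alpha. Tnfrsf1a, the main TNF receptor, lay within -0.26 to 0.60, and Tnfrsf1b rose in all 8 comparisons, by up to 1.32. A list of 7 genes held cytokine receptors together with Il1rn, the IL-1 receptor antagonist, which is not a receptor. Of these 7 genes 4, 3, 6 and 6 rose with IL-1beta and 2, 2, 1 and 3 with TNF-alpha. Those that fell were 0, 0, 0 and 0 with IL-1beta and 2, 2, 1 and 1 with TNF-alpha, with medians of 0.09 to 0.78. Over the 8 comparisons 10.9% to 19.3% of all genes rose and 10.6% to 19.7% fell. With TNF-alpha at 24 h 13.2% of all genes rose, so that 1 of 7 there was at the share of all genes. Ltbr, the lymphotoxin beta receptor that drives Madcam1 in lymphoid stroma, lay within -0.18 to 0.30.

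Shedding cuts these ligands from the cell surface. Adam17, a sheddase of VCAM-1 and ICAM-1, rose in all 8 comparisons, by 0.30 to 0.87, and its partner Rhbdf2 by 0.53 to 1.62. The 6 shedding genes include Timp3, an inhibitor of Adam17, so their counts give no direction of shedding. Of the 6 genes 3 to 5 rose and 0 to 2 fell over the 8 comparisons, with medians of 0.10 to 0.45. In these comparisons 10.9% to 19.3% of all genes rose and 10.6% to 19.7% fell. Of 8 cytoskeletal partners of the ligand tails 0 to 4 rose and 0 to 4 fell, with medians of -0.22 to 0.20. Ezr, or ezrin, which ties ICAM-1 and VCAM-1 to actin, had log2 fold changes of 0.19, 0.40, 0.02 and -0.74 with IL-1beta and 0.13, 0.40, 0.50 and 0.39 with TNF-alpha.

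Stromal cells of lymphoid tissue carry Madcam1 together with Tnfsf11 and Cxcl13, so a lymphoid stroma list of 10 genes was read, of which 8 were tested. With IL-1beta 3, 3, 5 and 6 rose and 1, 0, 1 and 0 fell, and with TNF-alpha 3, 2, 2 and 1 rose and 1, 0, 1 and 0 fell, with medians of 0.13 to 1.14. Of all genes 15.5%, 14.5%, 17% and 19.3% rose with IL-1beta, and 10.9%, 14.6%, 13.2% and 17.8% with TNF-alpha. In the 8 comparisons 10.6% to 19.7% of all genes fell, so a fall of 1 of 8 was near that share. The 1 of 8 that rose with TNF-alpha at 72 h was not above the share of all genes. Tnfsf11, or RANKL, had log2 fold changes of 1.91, 1.21, 1.91 and 4.11 with IL-1beta and 2.59, 0.40, -0.35 and 0.66 with TNF-alpha, and with TNF-alpha only the value at 4 h was called. In the groups with most Madcam1, TNF-alpha 12 and 24 h, it was not called higher (adjusted p = 0.213 and 0.313). At 24 h it was higher with IL-1beta than with TNF-alpha by 2.27 ± 0.22 (adjusted p = 3.38e-10), where Madcam1 was lower with IL-1beta. Cxcl13, a B cell chemokine, reached 0.565 CPM at most as a group mean, in TNF-alpha 24 h, where it rose by log2 4.51 (adjusted p = 0.0163). That value ran from 2.01 to 6.55 over the fits without 1 library, and its call was lost without TNF-alpha a or control b or c. Cxcl13 also rose with IL-1beta at 72 h, to 0.487 CPM, against no counts in controls (adjusted p = 0.00544), and this call held in all 6 fits. Pdpn, a marker of stromal cells, rose in all 8 comparisons, by 0.95 to 1.87.

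The genes closest to each member were found by Pearson's r of log2 CPM over the 38 libraries, given as a description since libraries of a group share their treatment. For Icam1 these were Lif (r = 0.978), Tead1, Nlrp3, Ptges and Rnd1 (r = 0.955). Lif, a cytokine of the IL-6 family, had log2 fold changes of 5.61, 3.83, 2.42 and 1.09 with IL-1beta and 5.59, 3.94, 3.42 and 3.55 with TNF-alpha, and Ptges, a prostaglandin E synthase, 3.31, 3.01, 2.63 and 1.74 with IL-1beta and 3.32, 3.03, 3.05 and 3.31 with TNF-alpha. For Vcam1 they were Rab8b (r = 0.937), Psmb8, Camk2d, Gbp5 and Irf1 (r = 0.911). Gbp5, a guanylate-binding protein, had its smallest log2 fold change at 12 h with IL-1beta, as did Vcam1, at 3.96, 1.71, 3.93 and 4.27 with IL-1beta and 5.75, 4.61, 4.68 and 4.64 with TNF-alpha. For Madcam1 they were Ass1 (r = 0.962), Prdx1, Rgs12, Slc11a1 and Plk2 (r = 0.919). Ass1, argininosuccinate synthase, had log2 fold changes of 0.13, 1.39, 1.48 and 0.30 with IL-1beta and 0.33, 2.19, 2.45 and 2.39 with TNF-alpha. No gene was in more than 1 of these lists. Between the members r was 0.657 for Icam1 with Vcam1, 0.51 for Icam1 with Madcam1 and 0.551 for Vcam1 with Madcam1.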

How the data were processed

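The authors deposited whole-number counts of reads per gene in mouse tissue-engineered cartilage. Per the submitters' processing notes the tools were Trimmomatic, cutadapt, STAR and featureCounts and the build mm10, with no version or role given. The labels' protocols name the Norgen kit for mRNA isolation and Ribo-Zero Gold libraries. The sources used here give neither strand setting nor annotation version, so reads of antisense transcripts cannot be told apart. Some 2199 lines of the deposited table carry no gene name and were not used. Those lines end before the columns of IL-1beta 72 h b and c, which otherwise hold whole-number counts like the others. The column of control 0 h b, with 220180 counts in all, was left out. The small RNA libraries were not used.

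The test was edgeR's quasi-likelihood F test (version 4.0.16, with limma 3.58.1 and data.table version 1.17.8 in R 4.3.3), with TMM scaling, filterByExpr by group, 1 fit over 38 libraries with a coefficient per group, and Benjamini-Hochberg adjustment over 18857 genes. Alternatives were DESeq2 1.42.0, other scalings, no filter, a replicate block, fewer libraries and leaving out each library. The procedure was tested on simulated data for 1 comparison only, TNF-alpha against control at 24 h. The simulation did not cover changes of an effect over time or the library division. No 2 libraries of a group were copies (lowest chi-square per degree of freedom 3.39). The members and the 10 gene lists were chosen with earlier results of these data known. Members were named in every group, list genes by a fixed set plus at most 2 per list with the smallest p at 24 h, and likeness by the 5 highest r among genes with mean CPM of at least 1 (prior count 2), without Gm-number, Rik or -ps symbols. Of the members, RefSeq promoters were taken for Icam1 and Madcam1. Figures used matplotlib 3.10.9 and pandas 2.3.3 under Python 3.11.15 with NumPy 2.4.6.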

Additional observations from a re-analysis of the deposited data

Results flagged for a closer look

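The effect of a cytokine differed between times, by the interaction of treatment and time in edgeR's quasi-likelihood test, in 4 of the 6 combinations of gene and cytokine. For Icam1 the adjusted p was 6.32e-18 with IL-1beta and 2.27e-13 with TNF-alpha, and the effect was largest at 4 h in both. For Vcam1 it was 9.54e-05 with IL-1beta, where the effect was smallest at 12 h, and 0.0429 with TNF-alpha, where the call rested on the 4 h groups and on most single libraries. Among all genes 38.7% changed their IL-1beta effect and 19.2% their TNF-alpha effect over time.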

How the results depend on the processing

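Directions and calls of the members' comparisons, and for most alternatives the number of genes called in each comparison, were recomputed. DESeq2's size factors in edgeR moved none of 99 such results. DESeq2's Wald test moved 1 of 48: Madcam1 with IL-1beta at 72 h passed at log2 3.74 (adjusted p = 0.0133). Deviations from the group means were little correlated between libraries of the same letter (-0.106 to 0.0959 over 36 same-letter pairs across groups of a time). Such correlations over all genes tested cannot exclude a small effect shared by a letter. With the letter as a replicate block that Madcam1 value passed at 4.61 (adjusted p = 0.047), and the change of the TNF-alpha effect on Vcam1 over time was lost at F = 4.41 (adjusted p = 0.0546). With library totals alone, Vcam1 differed between IL-1beta and TNF-alpha at 72 h at -0.45 (adjusted p = 0.0175), and in the controls over time at F = 3.63 (adjusted p = 0.0272). Lost there were the change of the TNF-alpha effect on Vcam1 at F = 3.92 (adjusted p = 0.0665) and the Vcam1 effect of IL-1beta at 24 h against 12 h at 0.63 (adjusted p = 0.0697). That scaling moved the median gene by log2 -0.101 for IL-1beta at 4 h, 0.109 for TNF-alpha at 72 h and -0.1 between the cytokines at 72 h. The share of called genes that rose was 47.4% and became 28.4% for IL-1beta at 4 h, 50.7% and 40.5% for TNF-alpha at 4 h, and 49.3% and 67.1% for TNF-alpha at 72 h. Between the cytokines the share higher with IL-1beta was 46.1% and 27.2% at 4 h, and 48.7% and 34.9% at 72 h.

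With no low-count filter 10 results gained a call: Madcam1 with IL-1beta at 72 h (4.57 (adjusted p = 0.0097)), IL-1beta against TNF-alpha for Icam1 at 12 h (-0.31 (adjusted p = 0.00197)) and Vcam1 at 72 h (-0.35 (adjusted p = 5.41e-05)), Vcam1 in controls over time (F = 7.49 (adjusted p = 4.50e-05)), the Vcam1 effect of IL-1beta at 72 h against 24 h (0.48 (adjusted p = 0.00026)) and of TNF-alpha at 12 h against 4 h (-0.57 (adjusted p = 1.26e-05)) and 72 h against 4 h (-0.37 (adjusted p = 0.0114)), that of Madcam1 at 72 h against 4 h (7.29 (adjusted p = 0.0115)), and the Vcam1 level under TNF-alpha at 12 h against 4 h (-0.39 (adjusted p = 1.47e-05)) and 72 h against 24 h (0.27 (adjusted p = 0.0127)). Fitted on only the libraries compared, Icam1 between the cytokines at 4 h lost its call at -0.30 (adjusted p = 0.0935) and Vcam1 at 72 h gained one at -0.35 (adjusted p = 0.0117); Madcam1 failed that fit's filter in the comparisons with no value. Choices made after seeing the data were the levels within a cytokine, the fit over 12, 24 and 72 h, which lost the TNF-alpha effect on Vcam1 at F = 1.09 (adjusted p = 0.62), and leaving out libraries for changes of effect and counts of genes. Against the 12 h controls, Madcam1 with TNF-alpha at 4 h was 1.51 (adjusted p = 0.324). The causes were not tested.

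Leaving out 1 library at a time gave 870 values of fold changes, F tests and numbers of genes called. Of these, 812 kept their direction and side of the threshold, the side alone for F tests, or a similar number of genes called. The log2 ranges of the results that did not always do so were -0.38 to -0.19 for Icam1 (IL-1beta against TNF-alpha at 4 h), 0.58 to 0.78 for Vcam1 (IL-1beta effect, 24 h against 12 h), -1.28 to -0.58 for Madcam1 (IL-1beta level, 24 h against 12 h), -0.023 to 0.15 for Vcam1 (IL-1beta against control at 12 h), 0.43 to 0.58 for Vcam1 (IL-1beta level, 72 h against 24 h), 2.53 to 5.32 for Madcam1 (TNF-alpha against control at 4 h), -0.16 to 0.32 for Vcam1 (TNF-alpha level, 24 h against 12 h), -0.89 to -0.46 for Vcam1 (TNF-alpha effect, 12 h against 4 h), -0.30 to 0.17 for Vcam1 (TNF-alpha effect, 24 h against 12 h), -0.68 to -0.24 for Vcam1 (TNF-alpha level, 12 h against 4 h), 0.51 to 0.90 for Madcam1 (TNF-alpha level, 24 h against 12 h), -0.34 to -0.20 for Icam1 (IL-1beta against TNF-alpha at 12 h), -0.20 to 0.037 for Icam1 (IL-1beta against TNF-alpha at 24 h), -0.68 to -0.33 for Vcam1 (IL-1beta against TNF-alpha at 24 h), 0.15 to 0.51 for Vcam1 (TNF-alpha level, 72 h against 24 h), -0.084 to 0.16 for Icam1 (TNF-alpha level, 72 h against 24 h), -0.46 to -0.26 for Vcam1 (IL-1beta against TNF-alpha at 72 h) and -0.017 to 0.92 for Madcam1 (TNF-alpha effect, 24 h against 12 h). The number of genes that differed for IL-1beta against TNF-alpha at 4 h ranged from 1431 to 2078, beside 2332 with every library, and was lowest without TNF-alpha 4 h a. F for the change of the TNF-alpha effect over time ranged from 3.15 to 9.18 for Vcam1. For the genes named from the lists, 1077 of 1152 such values kept their call. The libraries at Madcam1's low end hold 0 to 8 counts each, so folds there depend on single counts.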
